A study of Mus musculus with 12 samples.

Results

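The diet response of mouse liver lacking NLRP6 was read from 6 of the 12 libraries of the series, all 6 from NLRP6 knockout (KO) mice. The 3 libraries of the KO HFD group came from KO mice given a high-fat diet for 12 weeks from 8 weeks of age, and the 3 of the KO ND group from KO mice that stayed on normal diet. Both groups carried the same knockout, and diet is the labelled difference between them. An age of 8 weeks at the start of the diet is listed for every group, WT included. Age at sampling is not listed for any group, so it cannot be compared between the diets. The other 6 libraries came from wild-type (WT) mice, 3 on each diet, with 12 weeks of high-fat diet as in KO. They served to estimate the spread of each gene and to show where the KO response differed. Each library held liver RNA, with reads counted per gene. How the knockout was made, in which cells it acted, and the strain and sex of the mice are not given in the sources used here.

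NLRP6 belongs to the NOD-like receptors, cytosolic sensors of which several assemble inflammasomes, the complexes that activate caspase-1 and mature interleukin-1β and interleukin-18. It is best known from the intestinal epithelium, where it has been tied to mucus secretion and to the make-up of the microbiota. A long high-fat diet loads hepatocytes with triglyceride in lipid droplets, and genes of fatty acid synthesis, fatty acid oxidation, cholesterol synthesis and inflammation are commonly affected in such livers. The stated purpose of the series concerns the role of NLRP6 in fat accumulation within hepatocytes.

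The 6 KO libraries had 13339879 to 15933886 counts each. The count table lists 42554 rows, and 13843 passed the filter on low counts, made up of 13291 annotated genes and 552 unannotated loci. None of the gene IDs was matched to a symbol, so Nlrp6 itself, genes of lipid handling and markers of hepatocytes or other liver cells were not analysed here. One gene had 2019 to 2981 counts in the WT libraries and 0 in all 6 KO libraries. In whole liver, fewer cells of a type and less RNA per cell cannot be told apart.

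The high-fat diet was accompanied by a change in a large part of the KO liver transcriptome. On HFD 3129 genes were higher and 3066 lower than on ND (edgeR quasi-likelihood test, p adjusted after Benjamini and Hochberg across the 13843 genes, threshold 0.05), which is 22.6% and 22.1% of the genes tested and 44.8% in all. The rises and falls were nearly equal in number, and the median log2 fold change over all genes was 0.01. Scaling by TMM places the bulk of the log ratios near 0, so this balance depends on the scaling. With upper-quartile scaling 3550 genes were higher and 2735 lower, with a median of 0.09. Most called changes were of moderate size: 1261 rises and 1066 falls were of 1.5 to 2 times, and 667 and 555 were smaller. Falls were somewhat larger than rises, with a median of 0.96 on the log2 scale against 0.87. The strongest class, at 8-fold or more, held 73 rises and 71 falls, and the class of 4 to 8 times held 168 and 241.

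**Figure D1:**
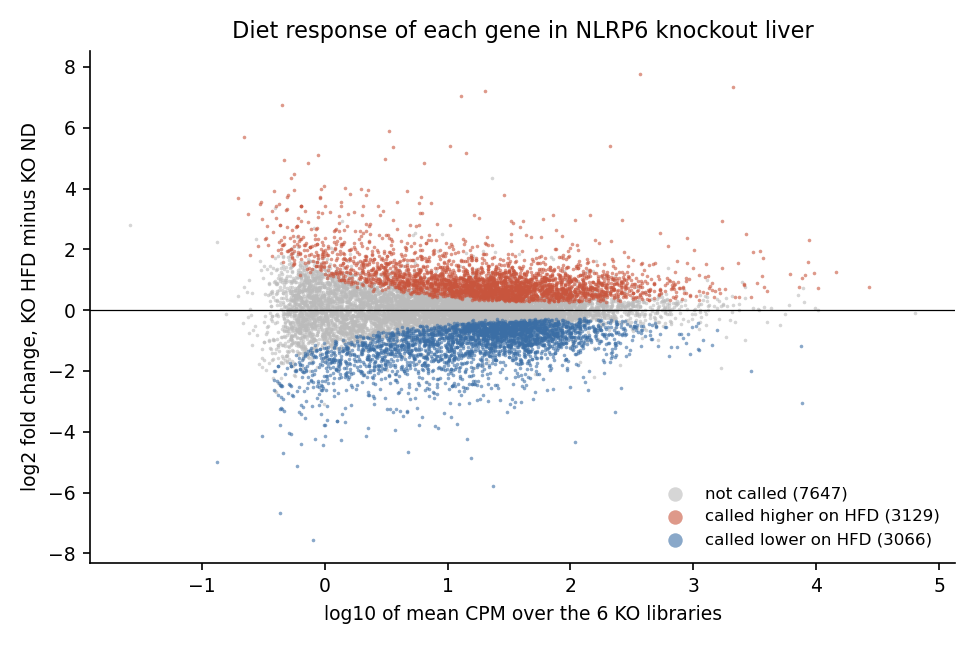
Each point is 1 gene, with log10 of its mean level in CPM (counts relative to the TMM-scaled library total) over the 6 KO libraries on the horizontal axis and the log2 fold change between KO HFD and KO ND on the vertical axis. Called genes lie on both sides of 0 at all levels, 3129 above and 3066 below, while the gene with no count in any KO library is not drawn.

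Most called genes separated the diets completely. In 5933 of the 6195 called genes the 3 KO HFD values did not overlap the 3 KO ND values, 2925 higher and 3008 lower. Over all genes tested, called or not, the 2 groups did not overlap in 7603, or 54.9% (26.4% higher and 28.5% lower on HFD), and 1670 of these did not pass the test. The 262 called genes with overlapping groups are those in which the 3 HFD libraries did not all lie beyond the ND range. Leaving out any 1 of the 6 KO libraries gave 5045 to 6251 called genes. Nothing in the labels says that replicates were separate animals, so the p-values reflect only how these samples vary, which may be technical.

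Weakly expressed genes were called less often. Among 1402 genes under 1 CPM, 149 rose and 135 fell, 20.3% of the class, against 36.7% of the 4519 genes from 1 to 10 CPM and 53.6% of the 6483 genes from 10 to 100 CPM. Rises outnumbered falls among abundant genes. Of the 1322 genes from 100 to 1000 CPM, 456 rose and 263 fell. Of the 117 genes above 1000 CPM, 46 rose and 10 fell, with a median log2 fold change over the class of 0.32. Abundance here is the mean over all 6 libraries, HFD included. Among the 100 genes most abundant on ND, a choice that uses no HFD library, 29 rose and 15 fell, with a median of 0.15.

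A smaller number of genes held most of the counts in each HFD library than in each ND library. 50% of all counts were held by 245, 274 and 260 genes in KO ND replicates 1, 2 and 3, and by 147, 187 and 174 genes in KO HFD replicates 1, 2 and 3. The groups did not overlap. The means were 260 ± 14.5 and 169 ± 20.4 genes (SD, n = 3 each). A two-sided exact permutation test gave p = 0.1, the lowest that 3 against 3 allows, and 0.125 after adjustment over 10 measures per library. An effective number of genes, the exponential of the Shannon entropy of the count shares, was 1622 ± 72.8 on ND and 1269 ± 158 on HFD (SD, n = 3 each; exact permutation p = 0.1, adjusted 0.125). In the HFD libraries it was 1091, 1392 and 1325, so the first replicate was the least even. The 100 most abundant genes of each library took 38.9% ± 0.876 of the counts on ND and 44.1% ± 1.51 on HFD (SD, n = 3 each; exact permutation p = 0.1, adjusted 0.125). Rows with at least 1 count numbered 18607 ± 81.5 on ND and 17927 ± 81.7 on HFD (SD, n = 3 each), in libraries whose total counts averaged 15035500 and 13833300.

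The called genes took very different shares of the counts on the 2 diets. The 3129 higher genes held 26.1% to 26.8% of the counts in the KO ND libraries and 46.6%, 42.2% and 45.6% in KO HFD replicates 1, 2 and 3. The 3066 lower genes held 21.3% to 22.4% on ND and 8.63%, 10.6% and 9.61% on HFD. These shares describe genes chosen from the same libraries and carry no test.

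Of the 10 most abundant genes on ND, 3 rose, 2 fell and 5 did not pass the test. The most abundant gene had 70196, 59908 and 67948 CPM on ND and 84900, 47899 and 52617 CPM on HFD, with overlapping groups and a log2 fold change of -0.10 (SE 0.23, edgeR adjusted p = 0.754). The third in rank on ND had 12787, 12769 and 15330 CPM there and 2452, 1080 and 1352 CPM on HFD. All 3 HFD values lay far below the ND range, and the gene moved to rank 75, with a log2 fold change of -3.07 (SE 0.30; edgeR adjusted p = 1.01e-05). The seventh, an unannotated locus, had 9073, 8526 and 8134 CPM on ND and 31340, 13157 and 17060 CPM on HFD. It lay above the ND range in every HFD library and moved to rank 3, with a log2 fold change of 1.26 (SE 0.26, edgeR adjusted p = 0.0018). The sixth had 4787 CPM in KO HFD replicate 1, below the ND range of 8884 to 10438, and 14577 and 10919 CPM in replicates 2 and 3, above it. Its mean was nearly equal on both diets, with a log2 fold change of 0.08 that did not pass the test (SE 0.31, edgeR adjusted p = 0.851). The 10 highest genes of the 2 diets had 5 in common, and the 100 highest 77.

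The largest rises and falls were taken among the 4042 annotated genes that were called, had non-overlapping groups and averaged at least 10 CPM. Among these genes, the 2 with the largest rises behaved differently from each other across the libraries. MGP_C57BL6NJ_G0026023 rose most. It had 4.92, 2.49 and 2.68 CPM in the KO ND libraries and 10.8, 1220 and 975 CPM in KO HFD replicates 1, 2 and 3. Replicates 2 and 3 were high, and replicate 1 was only just above the ND range. Its log2 fold change was 7.76 (SE 1.64, edgeR adjusted p = 0.0047), and the mean went from 3.36 ± 1.35 to 736 ± 640 CPM (SD, n = 3 each). The SD on HFD was nearly as large as the mean, and the log2 fold change was 7.17 without KO HFD replicate 2 (edgeR adjusted p = 0.0124, and 4.48e-10 to 0.098 over 16 alternatives). In WT liver the same gene had 19.4, 67.7 and 180 CPM on ND and 8.84 to 13.3 CPM on HFD, lower on HFD in every library. The WT change did not pass the test (log2 fold change -2.98, SE 1.32, edgeR adjusted p = 0.103), nor did the difference between the 2 responses (10.74, SE 2.09, edgeR adjusted p = 0.0504). That difference passed under 6 of 20 alternative settings, with adjusted p from 8.29e-08 to 0.167, among them the fit without KO HFD replicate 1 (11.32, edgeR adjusted p = 0.00234) and the fit without WT ND replicate 1 (11.22, edgeR adjusted p = 0.0492).

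MGP_C57BL6NJ_G0032330 was close to absent on ND, with 7, 2 and 0 counts, and had 310, 318 and 362 counts in the KO HFD libraries. The 3 HFD levels lay close together, at 26.2, 24.0 and 26.0 CPM. Summed over each group, 9 counts on ND stood against 990 on HFD, a ratio of 137 after scaling to library size, with a 95% exact binomial interval from 72.0 to 301 that covers counting error only. The fitted log2 fold change was 7.04 (SE 2.17, edgeR adjusted p = 0.0268). In WT the gene was present in some libraries and absent from others on both diets, at 241, 0 and 1 counts on ND and 0, 182 and 119 on HFD. The call in KO was lost under 7 of 16 alternative settings, with adjusted p from 0.000217 to 0.0815. The 7 include the fits that left out KO ND replicate 1 (log2 fold change 8.46, adjusted p 0.0645), KO ND replicate 2 (0.0812), KO ND replicate 3 (0.0815), KO HFD replicate 1 (0.0558) and KO HFD replicate 3 (0.052), all edgeR adjusted p. The fit with the replicate number as a block also lost it (7.26, edgeR adjusted p = 0.0511). In the 6 KO libraries alone the call held with a much smaller SE (7.04, SE 0.457, edgeR adjusted p = 0.000217). It also held there with the block (7.07, SE 0.50, edgeR adjusted p = 0.00155). The source of the wider SE in the fit of all 12 libraries was not tested.

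Among the same 4042 annotated genes, the 2 with the largest falls were low in every HFD library of both genotypes. MGP_C57BL6NJ_G0016670 had 47.2, 51.2 and 38.7 CPM on ND and 0.506, 0.829 and 1.08 CPM on HFD in KO. The lowest ND value was far above the highest HFD value. Its mean was 45.7 ± 6.37 CPM on ND and 0.804 ± 0.286 CPM on HFD (SD, n = 3 each), which is 56.9 times lower (log2 fold change -5.79, SE 0.43, edgeR adjusted p = 4.72e-06). In WT it fell from 47.1 ± 6.58 to 3.34 ± 2.40 CPM (SD, n = 3 each), a log2 fold change of -3.80 (SE 0.36; edgeR adjusted p = 2.55e-05). The fall was larger in KO by a log2 difference of -1.99 that did not pass the interaction test (SE 0.57, edgeR adjusted p = 0.11, and 0.0102 to 0.251 over the alternatives). It passed under 3 of 20 alternatives. These were DESeq2 (-2.02, DESeq2 adjusted p = 0.0102), limma-voom with quality weights (-1.12, limma adjusted p = 0.0228) and the fit without WT HFD replicate 1 (-2.34, edgeR adjusted p = 0.036).

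MGP_C57BL6NJ_G0033355 had 23.1, 29.8 and 36.8 CPM on ND and 0.253, 1.66 and 1.08 CPM on HFD in KO. The groups were far apart. The 3 HFD libraries held 3, 22 and 15 counts and differed among themselves. Its mean went from 29.9 ± 6.85 to 0.995 ± 0.706 CPM (SD, n = 3 each), a log2 fold change of -4.87 (SE 0.41, edgeR adjusted p = 6e-06). In WT it fell from 11.5 ± 2.29 to 0.858 ± 0.379 CPM (SD, n = 3 each), a log2 fold change of -3.74 (SE 0.42, edgeR adjusted p = 4.87e-05). The difference between the 2 falls was -1.13 and did not pass the test (SE 0.62, edgeR adjusted p = 0.38, and 0.0194 to 0.676 over 20 alternatives). It passed under 1 of them, limma-voom with quality weights (-1.47, limma adjusted p = 0.0194).

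**Figure D2:**
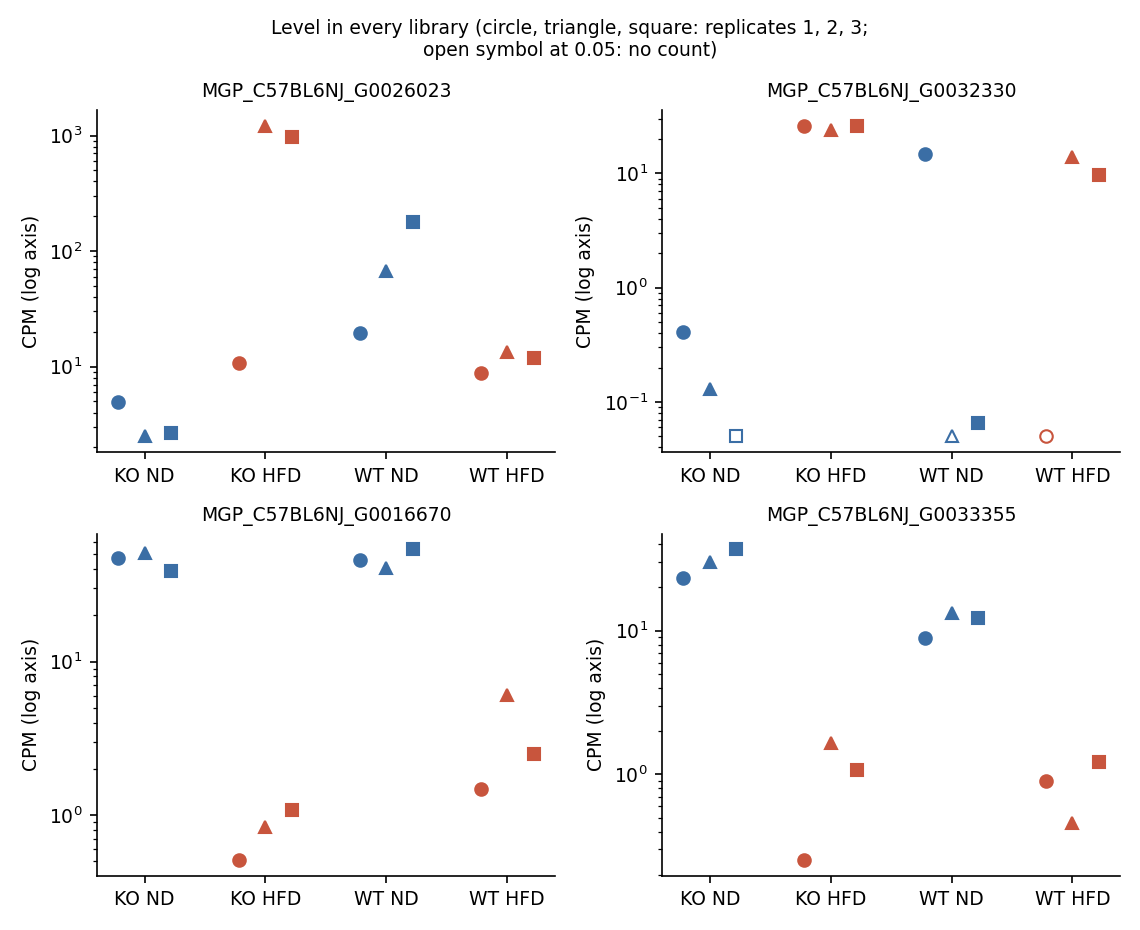
Level in CPM (log axis) of the 2 genes with the largest rises (upper panels) and the 2 with the largest falls (lower panels) in all 12 libraries, by genotype and diet. The choice was among annotated genes that were called, had non-overlapping groups and averaged at least 10 CPM. In MGP_C57BL6NJ_G0026023 KO HFD replicate 1 (circle, 10.8 CPM) lies far from replicates 2 and 3 (1220 and 975 CPM), whereas the fallers are low in every HFD library of both genotypes.

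Complete switching between the diets was rare. Of the genes tested, 4 had no count in any KO ND library, the gene absent from all KO libraries among them, and 2 of the 4 were called higher on HFD. Likewise 4 had no count in any KO HFD library, again including that gene, and 3 of these were called lower. No gene had at most 1 count in every KO ND library and at least 20 in every KO HFD library, and 1 gene showed the reverse. With 0 counts observed, a true level worth up to 3 counts in a library remains possible.

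Unannotated loci rose more often than they fell. Of the 552 tested, 173 rose and 44 fell, and 127 of the rises were of at least 2-fold. Their median log2 fold change was 0.50, against 0.01 over all genes tested and -0.01 over the 13291 annotated genes, of which 2956 rose and 3022 fell. These loci held 2.17%, 2.17% and 2.09% of the counts in the KO ND libraries and 4.45%, 2.97% and 3.46% in KO HFD replicates 1, 2 and 3. All HFD libraries were above all ND libraries, with means of 2.14% ± 0.0469 and 3.63% ± 0.752 (SD, n = 3 each; exact permutation p = 0.1, adjusted 0.125).

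The 3 KO HFD libraries were unequal. Between replicates 1 and 2, 1878 of the 12441 genes that averaged 1 CPM or more differed at least 2-fold (15.1%), between replicates 1 and 3 1042 (8.38%), and between replicates 2 and 3 392 (3.15%). Replicates 2 and 3 were thus about as close to each other as the KO ND libraries, where such pairs differed in 340 to 538 genes (2.73% to 4.32%). By the median absolute log2 difference over the 12441 genes, replicate 1 lay 0.407 and 0.300 from KO HFD replicates 2 and 3. From WT HFD replicates 1, 2 and 3 it lay 0.204, 0.294 and 0.237. KO HFD replicate 2 lay 0.398, 0.334 and 0.329 from these WT libraries, and KO HFD replicate 3 lay 0.298, 0.246 and 0.227 from them. The biological coefficient of variation, the spread beyond counting error, was 0.259 in KO HFD and 0.162 in KO ND. It was 0.188 in WT HFD and 0.194 in WT ND. Without KO HFD replicate 1 the KO HFD value was 0.141, and the lowest values with 1 library left out of the other 3 groups were 0.117 to 0.142. The median SD of log2 CPM over genes was 0.27 on HFD and 0.18 on ND, and 66.0% of genes had the larger SD on HFD. This share was 76.9% among the 117 genes above 1000 CPM, with median SDs of 0.34 and 0.12.

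In a principal component analysis of the 6 libraries the first component, 68.1% of the variance, separated the diets. KO ND libraries scored -52.2 to -43.8 and KO HFD replicates 1, 2 and 3 scored 65.1, 31.5 and 46.0. The second component, 17.6% of the variance, spread the HFD libraries at -41.8, 39.1 and 17.3 and left the ND libraries between -5.55 and -3.90. Replicate 1 was therefore both the farthest from ND along the diet axis and apart from the other two across it.

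**Figure D3:**
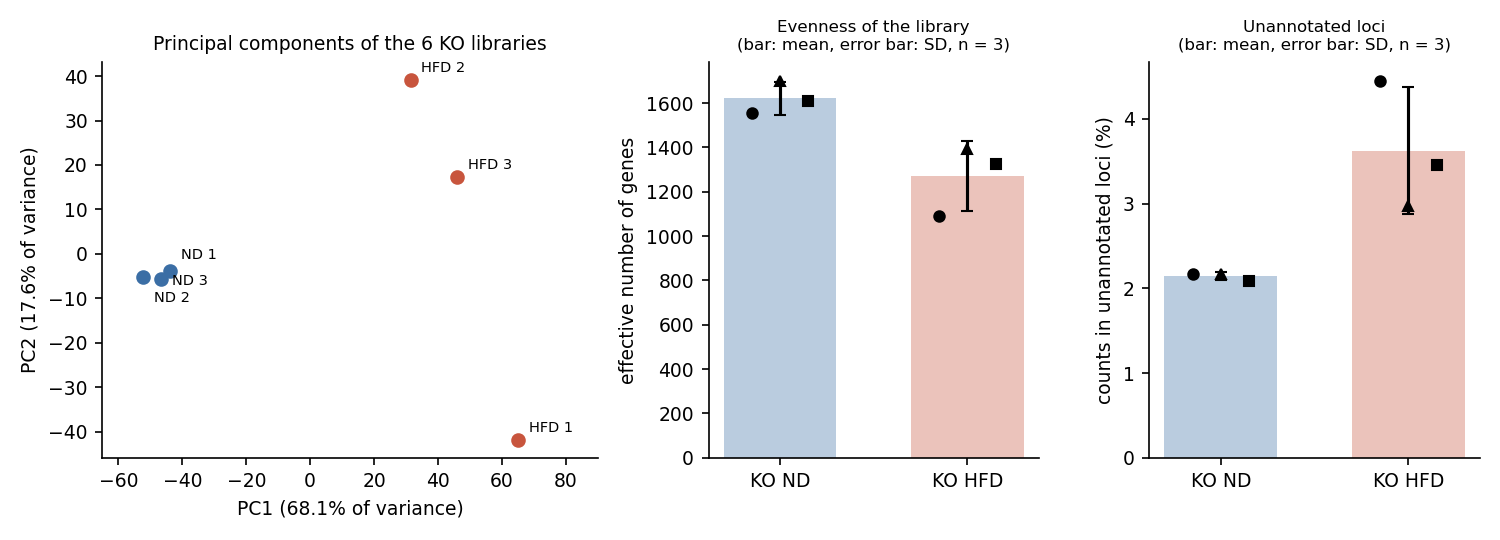
Left, scores of the 6 KO libraries on the first 2 principal components of log2 CPM, with ND libraries close together and HFD libraries spread along the second. Middle and right, effective number of genes and percent of counts in unannotated loci per library (circle, triangle and square for replicates 1, 2 and 3; bars are means, error bars SD, n = 3), where replicate 1 is the most extreme HFD library in both.

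Replicate 1 usually showed the largest change and replicate 2 the smallest. Set against the mean of the KO ND libraries, replicate 1 was at least 2-fold higher in 1768 and lower in 1976 of the 12441 genes, replicate 2 in 766 and 1240, and replicate 3 in 1147 and 1422. A single KO ND library set against the other two gave 89 to 151 higher and 88 to 186 lower. Only a minority of the 2-fold changes were found in all 3 HFD libraries: 393 of the 2172 genes up in at least 1, and 784 of the 2507 down in at least 1. Of those found in 1 library only, replicate 1 had 843 of 1056 up and 807 of 1160 down. Among the 3129 called higher genes, replicate 1 was the highest HFD library in 63.7% and replicate 2 the lowest in 62.2%. Of the 3129 higher genes, 3048, 3013 and 3122 lay above all ND libraries in replicates 1, 2 and 3. For the 3066 lower genes, 3043, 3039 and 3054 lay below them all. These genes were called from the same libraries, so such counts are largely built into the choice and carry no test. Over all 13843 genes tested, all 3 HFD libraries lay above every ND library in 26.4% and below every one in 28.5%.

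Replicate 1 also stood apart from both other KO HFD libraries in single genes. It was at least 4-fold below both other HFD libraries in 93 genes and above both in 14, whereas replicate 2 stood below in 24 and above in 4, and replicate 3 below in 1 and above in 1. At a 2-fold limit it stood below both in 504 genes and above both in 300. Of these, 307 and 222 were not called between the diets, beside 7648 of the 13843 genes tested, and a choice by disagreement among the HFD libraries itself works against a call. In the 504 genes the median of replicate 1 was 1.46 below the ND mean on the log2 scale, while the other two averaged 0.14 above it. In the 300 genes replicate 1 was 1.61 above ND and the other two -0.05 from it. Replicate 1 was nearer than the mean of the other 2 to the WT HFD mean in 331 of the 504 (65.7%) and 197 of the 300 (65.7%). The same share over all genes was not computed. These gene sets were chosen by the difference between the libraries and are given as a description.

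The same order of libraries appeared over genes chosen by the diet contrast in WT mice, which share no library with KO. The choice was not fully independent of KO. The WT calls came from the model of all 12 libraries, so KO libraries entered the filter, the scaling and the spread estimate of each gene. In WT 5676 genes were called, 41.0% of those tested. For the 2704 genes called higher on HFD in WT (19.5% of those tested), the median log2 difference from KO ND was 0.94, 0.45 and 0.68 in KO HFD replicates 1, 2 and 3, and for the KO ND libraries it lay between 0.00 and 0.01. For the 2972 genes called lower in WT (21.5%), it was -1.03, -0.64 and -0.78. In replicate 1, 95.4% of the first set were above the ND mean, against 83.9% in replicate 2 and 91.3% in replicate 3. The genes not called in WT had medians near 0 in all 3 HFD libraries, from 0.00 to 0.03. Their range between the 25th and 75th percentile of genes was nonetheless wider than in ND libraries, from -0.45 to 0.48, -0.38 to 0.43 and -0.37 to 0.43 in HFD replicates 1, 2 and 3 against -0.20 to 0.24, -0.25 to 0.22 and -0.17 to 0.18 in ND replicates 1, 2 and 3.

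**Figure D4:**
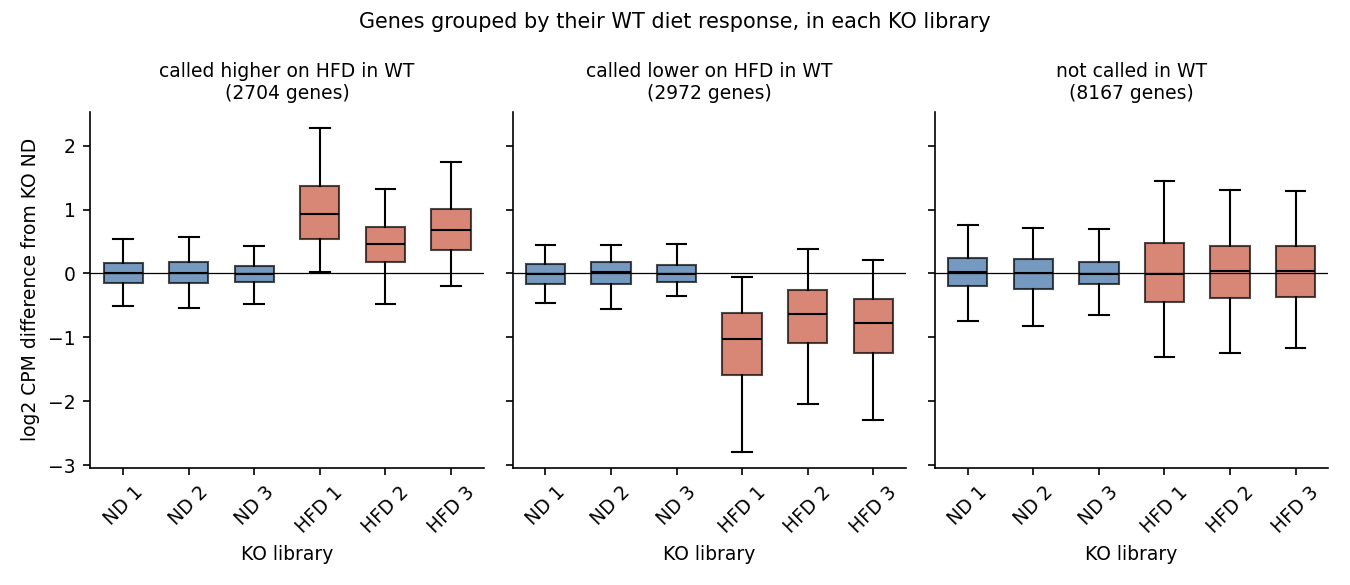
Distribution over genes of the log2 CPM difference from KO ND in each KO library (HFD libraries against the mean of all 3 ND libraries, ND libraries against the other two), for genes grouped by the WT diet response. Boxes span the 25th to 75th percentile with the median as a line, and whiskers run from the 5th to the 95th percentile of genes. Replicate 1 shows the largest and replicate 2 the smallest median displacement of the HFD libraries in the first 2 panels.

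Most genes of the KO response were also called in WT in the same direction, at a smaller median size over the whole set. The 3129 higher genes had a median log2 fold change of 0.87 in KO and 0.61 in WT, and 35 of them were called lower in WT. The 3066 lower genes had medians of -0.96 and -0.74, and 17 were called higher in WT. Genes chosen by their call in KO favour a larger value there, and genes called in both favour like sizes. The 1859 genes called higher in both genotypes had a median log2 fold change of 0.89 in KO and 0.84 in WT, and the change was the larger in KO for 52.5% of them. For the 2018 genes called lower in both, the medians were -1.068 and -1.002, and 54.6% fell more in KO. A further 1235 genes were called higher in KO and not called in WT. Of these 952 (77.1%) had a positive log2 fold change in WT as well, with medians of 0.83 in KO and 0.22 in WT, and 56 (4.53%) passed the test of the difference between the responses. Of 1031 genes called lower in KO and not in WT, 877 (85.1%) had the same sign in WT, with medians of -0.76 and -0.26, and 24 (2.33%) passed. In this fit a call in KO alone was thus seldom accompanied by a tested difference from WT. Over all genes tested 1.21% passed, a lower share than in either set, and that count depended strongly on single libraries.

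The test of the difference itself, the diet by genotype interaction, called 167 of all genes tested, or 1.21%. In 106 genes (0.766%) KO had the higher response, and of these 88 were called higher on HFD in KO, 5 were called lower and 13 were not called. It was lower in KO for 61 genes (0.441%), of which 44 were called lower in KO, 3 higher and 14 not at all. The KO fold change is one term of the interaction, so the agreement of these signs is built in. The count depended on single libraries. It was 942, 80 and 18 when KO HFD replicate 1, 2 or 3 was left out, and 99, 55 and 88 when KO ND replicate 1, 2 or 3 was. When WT HFD replicate 1, 2 or 3 was left out it was 119, 78 and 11, and when WT ND replicate 1, 2 or 3 was, 189, 57 and 95. All 167 genes were among the 942.

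**Figure D5:**
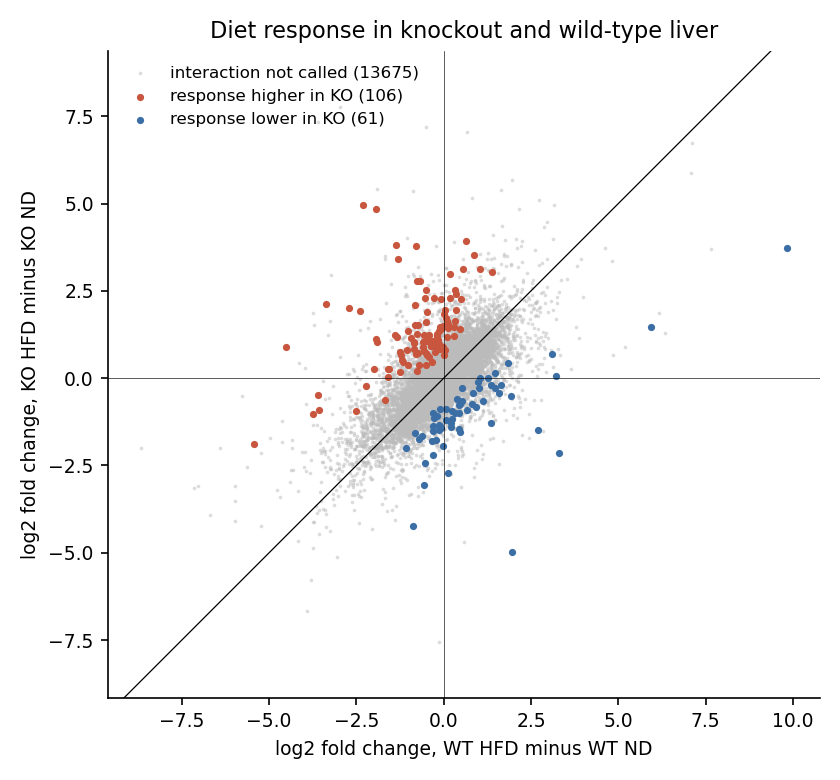
Log2 fold change between HFD and ND for each gene in WT (horizontal axis) and KO (vertical axis), with the line of equal response. Coloured points passed the interaction test, 106 with a response higher in KO above the line and 61 with a lower one below it. The gene absent from all KO libraries is not drawn.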

How the data were processed

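The authors deposited raw read counts per gene for liver RNA. Libraries were made with the NEBNext Ultra RNA kit, per the labels' protocols. HISAT2 2.0.5, featureCounts 1.5.0-p3 and build mm39 are named per the submitters' processing notes. The IDs are those of a C57BL/6NJ annotation, which leaves the build uncertain, and neither coordinates nor sequences are printed. The handling of strand and of reads shared by near-identical or overlapping genes is not stated there, so values of such genes are uncertain.

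Groups came from genotype and diet in the labels. Genes were kept by filterByExpr in edgeR 4.0.16 (R 4.3.3), which retained 99.9% of the counts or more in each library, scaled by TMM, and tested with the robust quasi-likelihood F-test in 1 model of all 12 libraries with the 4 groups as terms. The contrasts were HFD against ND in KO, HFD against ND in WT, and the difference between them, each adjusted on its own. A prior count of 2 went into log2 CPM. Measures with 1 value per library were compared by two-sided exact permutation over the 20 splits. Alternatives were DESeq2 1.42.0, limma 3.58.1 (voom, with and without quality weights), other scalings and filters, the 6 KO libraries alone, a replicate block and leaving out each library.

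The members and lists were chosen with earlier results of these data known. Genes printed by ID are annotated genes, 2 with the largest rise and 2 with the largest fall, that were called, had non-overlapping groups and averaged at least 10 CPM. Lists of pathway genes and cell type markers had been drawn up, but 0 IDs matched a symbol, so none was analysed here. The ranks on ND, the 2-fold comparisons of single libraries and the principal components were added after seeing the data. So were the distances of KO HFD libraries from WT HFD libraries. The genes in which KO HFD replicate 1 stood apart were also set against the ND and WT HFD means only then. No pair of KO replicates was a duplicate, with a chi-square per degree of freedom of 16.1 to 165 where sampling noise gives about 1. In simulated counts drawn with the libraries' own sizes and equal spread in all groups, 46.5% of 99 genes changed by 1 on the log2 scale and 81.8% of 99 changed by 2 were called, over 13563 genes tested. Of the calls, 3.05% were false. The simulation changed far fewer genes than were called in the data and gave KO HFD no wider spread. These shares therefore need not hold for the real contrast.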

Additional observations from a re-analysis of the deposited data

Results flagged for a closer look

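The diet response differed between KO and WT liver for 167 genes by the interaction test of edgeR, 106 with a response higher in KO and 61 with a lower one. They are listed because the difference between the 2 genotypes' effects was itself tested and passed. KO HFD replicate 1 lay apart from the other HFD libraries, and the count was 942 without it and 11 without WT HFD replicate 3. The part of unequal libraries in this result was not tested.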

How the results depend on the processing

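The count of genes called between diets in KO stayed within 1.5 times the reported 6195 under 15 of 16 alternatives, and rises made up 47.5% to 56.5% of the calls. With 1 KO library left out it was 5045 to 6251, and 4908 to 5611 of the 6195 genes were still called, all in the same direction. Quality weights in limma-voom, from 0.238 for KO HFD replicate 1 to 8.80 for KO HFD replicate 3, gave 9305; the cause was not tested. The interaction count stayed within 1.5 times under 8 of 20 alternatives, was 656 with DESeq2 and 3808 with quality weights (the cause was not tested), and ran from 11 to 942 with 1 library left out. The replicate numbers pair nothing in the labels, and same-numbered KO libraries deviated together with correlations of only 0.01 to 0.04. With the replicate block the counts were 6529 and 198, and 5186 in the 6 KO libraries alone with the block. Not every library correlated best with its own number. Of the 4 genes printed by ID, 1 reversed: the interaction difference of MGP_C57BL6NJ_G0032330 was -0.56 without WT ND replicate 1, the only WT ND library with more than 1 count, and up to 7.81 with another library left out. MGP_C57BL6NJ_G0026023 lost its call in the 6 KO libraries alone with the block (log2 fold change 6.90, edgeR adjusted p = 0.098, with 4.48e-10 as the lowest over its alternatives). The coefficient of variation with 1 library left out was 0.141 to 0.349 in KO HFD and 0.142 to 0.190 in KO ND. Over genes changed at least 2-fold in WT, the mean displacement of the KO HFD libraries was 0.97 for rises and -1.21 for falls, larger by the choice of genes. Under 1 CPM, 20.3% of genes were called, with a median SD of log2 CPM of 0.60 on HFD and 0.46 on ND; the part of depth in this share was not tested.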
